A study of Mus musculus with 2 samples.

Results

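Notch target genes and Fringe enzymes were followed in mouse endothelium made from embryonic stem cells, with and without a pulse of the mesoderm factor Mesp1. The set holds 10 genes chosen by name: the repressors Hes1, Hes5, Hes6, Hey1, Hey2 and Heyl, the feedback inhibitor Nrarp, and the Fringe enzymes Lfng, Mfng and Rfng. All probe sets whose platform symbol was 1 of these names were taken, which gave 17 probe sets for the 10 genes, among 18193 named genes in all. The data are 1 array per condition. The line behind both samples, A2lox.Mesp1 of the 129/Ola background, carries a Mesp1 gene that doxycycline (dox) switches on. The cells were grown as embryoid bodies, floating aggregates in which stem cells differentiate, and cells positive for Flk1 and Tie2, receptors of endothelium, were sorted on day 5. One culture was left untreated and also carried the transgene. The other received 250 ng/mL of dox from day 2, and the sample labels place its end at day 4. No dox-treated culture without the transgene was analysed here, so effects of dox and of Mesp1 cannot be told apart.

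When a Notch receptor meets a ligand on a neighbouring cell, its intracellular part is cut free and joins the DNA-binding protein RBPJ to switch on target genes. Among the best known targets are the Hes and Hey genes, which encode basic helix-loop-helix repressors, and Nrarp, which encodes an ankyrin repeat protein that limits Notch signalling in turn. Fringe enzymes act upstream, in the Golgi, where they add N-acetylglucosamine to O-linked fucose on the receptors and so change how receptors respond to Delta and Jagged ligands. In endothelium Notch signalling is known for its part in arterial identity, in sprouting, and in the formation of heart valves and blood stem cells.

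The promoter windows of the Notch target genes show where the letters that RBPJ recognises lie. RefSeq promoter windows of assembly GRCm38.p6, each running from 250 bases before to 50 bases after a gene's start, were found for 6 of the 10 genes (7 windows). Hes1, Hey1, Heyl and Mfng had none and were not searched. The windows were searched on both strands for TGGGAA, the core of the RBPJ site, and for CACGTG, an E-box that Hey and Hes proteins and other helix-loop-helix factors can bind. The windows below, written 5′ to 3′ on the strand of the gene, are those of Hes5, Hey2 and Nrarp, the members past the filter defined further on whose windows held a match, with each match in capitals. Hes6 and Rfng, also past it, had windows with no match.

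Hes5 (chr4:154960673-154960972, plus strand): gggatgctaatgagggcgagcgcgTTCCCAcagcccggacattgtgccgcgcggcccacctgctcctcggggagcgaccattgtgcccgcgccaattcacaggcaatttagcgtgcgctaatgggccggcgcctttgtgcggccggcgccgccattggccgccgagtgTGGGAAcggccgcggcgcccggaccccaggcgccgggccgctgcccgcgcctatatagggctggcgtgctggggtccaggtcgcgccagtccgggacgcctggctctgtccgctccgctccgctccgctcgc

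Hey2 (chr10:30842734-30843033, minus strand): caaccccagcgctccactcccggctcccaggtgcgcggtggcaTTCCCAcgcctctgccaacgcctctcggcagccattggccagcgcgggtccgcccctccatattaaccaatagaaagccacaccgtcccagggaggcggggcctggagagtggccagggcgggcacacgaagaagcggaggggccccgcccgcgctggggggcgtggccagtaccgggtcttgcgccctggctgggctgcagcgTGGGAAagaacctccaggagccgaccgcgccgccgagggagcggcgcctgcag

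Nrarp (chr2:25180508-25180807, plus strand): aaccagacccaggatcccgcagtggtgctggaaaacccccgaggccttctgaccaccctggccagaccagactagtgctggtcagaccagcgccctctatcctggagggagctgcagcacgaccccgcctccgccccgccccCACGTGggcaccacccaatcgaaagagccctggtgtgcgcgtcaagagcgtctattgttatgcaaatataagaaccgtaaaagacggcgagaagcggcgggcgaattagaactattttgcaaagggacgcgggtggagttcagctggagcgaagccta

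Hes5 and Hey2 each held the RBPJ core on both strands of the window. In Hes5 the matches began 226 and 82 bases before the start, and in Hey2 they began 207 and 3 bases before it. The Nrarp window held no RBPJ core and 1 E-box, 108 bases before the start. The Lfng window, not shown, held an RBPJ core 135 bases before the start and another at 108 bases that overlaps an E-box beginning at 112 bases. These are matches of letters, and the RBPJ core was present in 25.6% and the E-box in 7.15% of all 32851 windows of this length.

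Signals are linear and in arbitrary units, as deposited, and each log2 difference is dox minus no dox of log2(signal + 16), where the added 16 damps noise in dim probe sets and understates their change. Folds are on the same scale. A single array for each condition gives no replicate error and no test, so a gene was counted as differing when its log2 difference was 1 or more in size (2-fold). A gene passed the signal filter when either of its signals was at or above the array median (112.2 without dox and 127 with dox), and the probe set with the highest mean signal stood for the gene. The one error these arrays offer is how far probe sets for 1 gene disagree, with a pooled SD of 0.26 log2 units for probe sets with a mean signal of 500 or more and 0.48 for dimmer ones. That SD describes probe effects, not the spread between cultures. As a check of the labels, Mesp1 had signals of 2433 and 10977, while the genes of the sort, Kdr (10139.7 and 10733) and Tek (8799 and 9277), stood at like signals on both arrays. Probe sets bind with different strength, so signals of different probe sets are not compared.

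**Figure D1:**
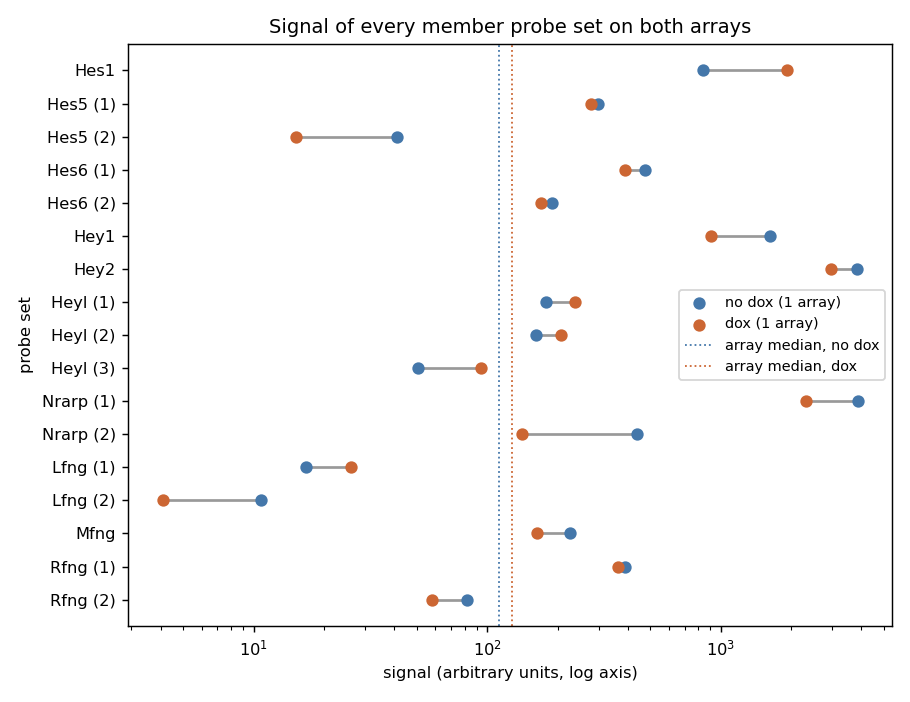
Signal of each of the 17 member probe sets (rows, numbered from the brightest within a gene) on the array without dox (blue) and with dox (orange), on a log axis in arbitrary units, with the median of each array dotted. Hes1 goes from 840.4 without dox to 1928 with dox, while Hey1, Hey2 and both Nrarp probe sets are lower with dox; positions of different rows are not comparable levels.

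Hes1 gave a higher signal after Mesp1 induction, while Hey1, Nrarp and Hey2 gave lower ones. Of the 10 genes 9 passed the signal filter, and of these 1 was at least 2-fold higher with dox and none at least 2-fold lower, which left 8 inside that limit. Among all 11794 genes past the filter, 5.69% were at least 2-fold higher and 2.06% at least 2-fold lower, so a count of 1 in 9 does not set the members apart. By any amount 2 of the 9 were higher and 7 lower, and their median log2 difference was -0.28, against 0.05 over all genes, of which 44.4% were lower. Lfng did not reach the filter on either array.

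Hes1 encodes a widely used Notch effector, a repressor that keeps progenitors from differentiating. Its single probe set (1418102_at) gave 840.4 without dox and 1928 with dox, 2.27-fold higher, a log2 difference of 1.18. A difference as high or higher was found for 519 of the 11794 genes past the filter, Hes1 included. The difference was larger than the 0.26 SD between bright probe sets, and no further probe set of Hes1 was present to compare it with. Hes1 lay close to the 2-fold line once both arrays were scaled to the same median, with a log2 difference of 1.002.

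Hes5, a repressor best known from neural progenitors, stood at nearly the same signal on both arrays. Its brighter probe set (1423146_at) gave 299 without dox and 278 with dox, a log2 difference of -0.10. Its other probe set (1456010_x_at) lay below the filter, with 41.0 and 15.2, and differed by -0.87. The direction was the same in both, and the size of the drop in the dim probe set depends on the added 16, since it was -1.38 with 1 added instead.

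Hes6 is a divergent relative that can block the action of Hes1. Its probe sets gave 473 without dox and 388 with dox (1436050_x_at) and 189.5 and 170.4 (1452021_a_at). Their log2 differences of -0.28 and -0.14 were smaller than the 0.48 SD between dim probe sets. In Affymetrix names the _x_ marks probes that may bind other transcripts as well, and the _a_ a set that matches several transcripts of 1 gene.

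Hey1 and Hey2 encode repressors that work together downstream of Notch in arterial endothelium and in the heart. Hey1 (1415999_at) went from 1629.6 in the untreated sample to 907 with dox, 1.78-fold lower (log2 difference -0.83). A difference as low or lower was found for 390 of the 11794 genes past the filter, and it was 3.19 times the SD between bright probe sets. Hey2 (1418106_at) had 3819 without dox and 2951 with dox, 1.29-fold lower (-0.37), which 1685 genes matched or exceeded. Both genes were lower with dox and both stayed within 2-fold, and each was read by 1 probe set.

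Heyl, the third Hey gene, known from vascular smooth muscle and from the early somite as well as from endothelium, lay on the other side. Its probe sets gave 179 without dox and 238 with dox (1419303_at) and 162.5 and 208 (1438886_at). A dimmer one below the filter gave 50.3 and 93.7 (1419302_at). All 3 were higher with dox, by log2 differences of 0.38, 0.33 and 0.73, and the brightest differed by less than the 0.48 SD between dim probe sets.

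Nrarp, the feedback inhibitor, was lower with dox by both of its probe sets, which disagreed in size. The brighter (1417985_at) had 3856 without dox and 2325 with dox, 1.65-fold lower (-0.73), a difference matched or exceeded downward by 556 genes. The other (1417986_at) had 439 without dox and 141 with dox, 2.89-fold lower (-1.53). Nrarp is therefore within 2-fold by the rule of the brightest probe set and past it by the mean of both (-1.13). Among the 12 member probe sets past the filter, this dimmer one was the single one 2-fold or more lower and that of Hes1 the single one 2-fold or more higher, where 2.12% and 5.59% of all 20451 probe sets past the filter were.

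**Figure D2:**
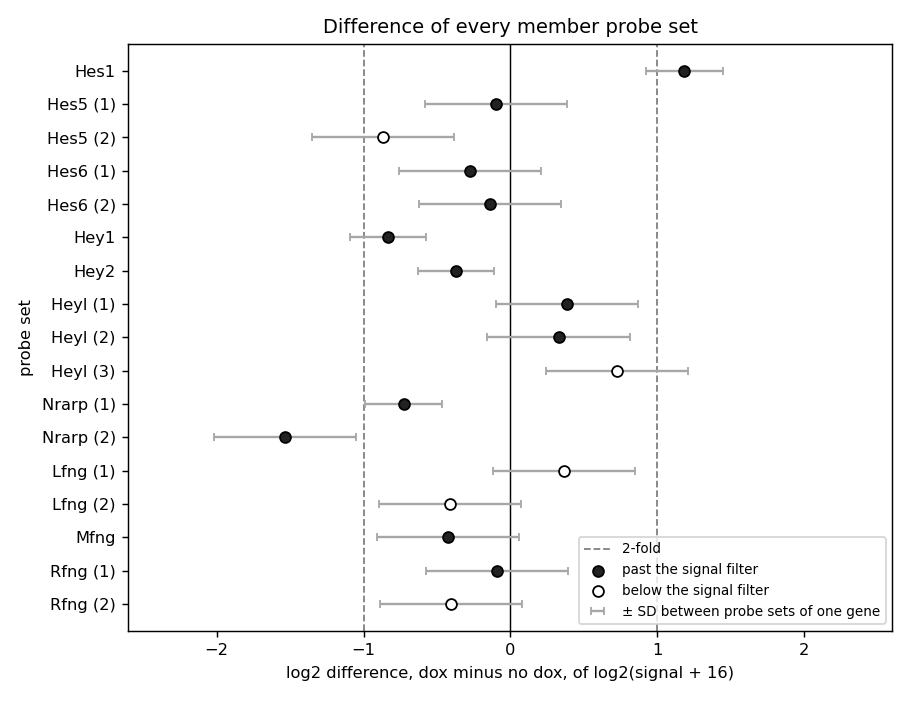
Log2 difference, dox minus no dox, of each of the 17 member probe sets, with bars of 1 SD between probe sets that share a gene (0.26 for a mean signal of 500 or more, 0.48 below), dashed lines at 2-fold and open circles for probe sets below the signal filter. Hes1 lies at 1.18 and the Nrarp probe sets at -0.73 and -1.53, while the 3 Heyl probe sets all lie above 0.

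The Fringe enzymes stayed within 2-fold or below the filter. Mfng, Manic fringe, had signals of 226 and 164 without and with dox (1416992_at), a log2 difference of -0.43. Rfng, Radical fringe, had 389 and 364 (1460704_at, -0.09), and its dim probe set below the filter had 82.0 and 58.1 (1421160_a_at, -0.40). Mfng and Rfng were lower with dox by less than the 0.48 SD between dim probe sets. Lfng, Lunatic fringe, the enzyme of the segmentation clock, had 16.8 and 26.1 (1420643_at) and 10.7 and 4.10 (1449943_at), all far under the array medians. Its probe sets differed in opposite directions, by 0.36 and -0.41, and no direction is given for Lfng.

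Across the 9 members past the filter, 4 differed by more than the SD between probe sets of their brightness: Hes1, Hey1, Nrarp and Hey2. These are also the 4 with a mean signal of 500 or more. The other 5, Hes5, Hes6, Heyl, Mfng and Rfng, were dimmer and differed by less than their SD. The median size of the difference, in either direction, was 0.38 for the members and 0.25 over all genes past the filter, bright and dim. The latter is close to the SD of 0.26 between bright probe sets, so differences of about that size are common. The share of all genes past their SD was not counted, so whether 4 of 9 sets the members apart is not known. Among bright genes 5.91% and among dim genes past the filter 11.5% differed 2-fold or more in either direction. The difference of Hes1 minus that of Hey1 was 2.02 log2 units, and that of Hes1 minus Nrarp was 1.91. A scaling of a whole array cancels in such a gap by construction.

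**Figure D3:**
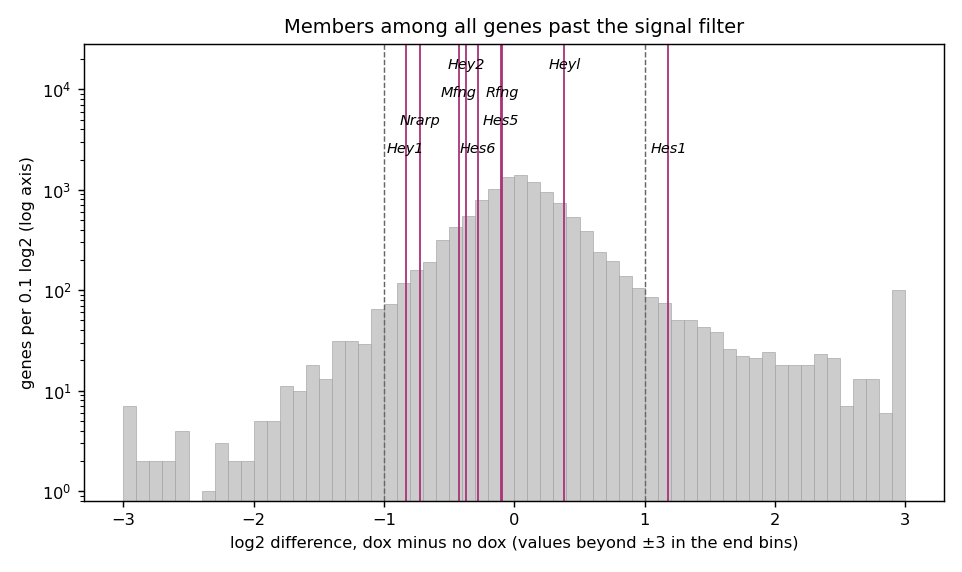
Distribution of the log2 differences (horizontal axis) of all 11794 genes past the signal filter, as genes per bin on a log axis, with the 9 members past it marked by lines and 2-fold by dashed lines. Hes1, at 1.18, is past the upper line, and Hey1 at -0.83 and Nrarp at -0.73 lie on the lower side within 2-fold.

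Further pathway genes that passed 2-fold lay on the higher side. Of 106 such genes listed, 99 had a named probe set and 85 passed the filter. Of these 85, 14 were at least 2-fold higher with dox and none at least 2-fold lower, and their median log2 difference was 0.22. That is a share of 16.5% higher, against 5.69% of all genes. The pathway lists, and the marker lists below, were chosen with earlier results of these data known, so such contrasts describe and do not test. Of the 14, Dner, Sox9 and Tbx2 passed the filter through the dox array alone, where they are high. With a filter on both arrays 11 of 81 were higher, against 3.82% of all genes. The 14 include 6 genes described as Notch targets elsewhere and 2 Id genes. In the lists of receptors, ligands, processing, glycosylation, nuclear factors, inhibitors, corepressors and other Hes genes, 6 of 59 were 2-fold or more higher.

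Among receptors and ligands 4 of 11 were 2-fold or more higher, against 5.69% of all genes, and the median was 0.45. Dner, an atypical ligand of neurons, went from 29.3, under the array median, to 176 with dox, and its other probe set from 12.5 to 192. Its log2 difference of 2.08 depends on the added 16, since it was 2.55 with 1 added and 1.36 with 64. Dlk1, an atypical ligand that can dampen Notch, had 638 and 2451 (3.77-fold). Its other probe set, below the filter, differed by 0.55. Jag1, the Jagged ligand of vessel walls, had 703 and 1691 (2.37-fold), and its other probe sets gave log2 differences of 0.99 and 0.69. The remaining gene of the 4, Notch2, was named after its values were seen. It differed by 1.11 by its brightest probe set and by -0.06 by another that also passed the filter. Jag2, also named after its values were seen, is counted within 2-fold at -0.39, but its other probe set past the filter had 336 and 80.2, a difference of -1.87. With the mean of all probe sets Jag2 was past 2-fold lower (-1.13), and Jag1 and Notch2 were within 2-fold.

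Genes that release the signal stayed within 2-fold by their brightest probe sets. All 11 genes of ligand endocytosis and receptor cleavage past the filter did so, with Aph1a, a subunit of gamma-secretase, at -0.84 (7137 to 3974), Furin, the protease that matures Notch, at 0.72 and the ligand regulator Neurl1a at 0.60. Another Neurl1a probe set, past the filter through the dox array alone, had 42.8 and 198 and differed by 1.87. Within the nuclear complex and its corepressors all 12 genes lay within 2-fold. The corepressor Spen differed by 0.57, Rbpj by 0.43 (1524 to 2052) and the acetyltransferase Kat2b by -0.41. Other Rbpj probe sets past the filter differed by 0.10 and -0.20, so they do not share a direction. The 7 enzymes and transporters of O-glycosylation other than Fringe were also within 2-fold. Gmds, which makes GDP-fucose, differed by -0.84 (1877 to 1039), the fucose transporter Slc35c1 by 0.71 and the glucosyltransferase Poglut1 by 0.39. Another Gmds probe set past the filter had 560 and 268, a difference of -1.02. With the arrays scaled to the same median Aph1a and Gmds, by their brightest probe sets, reached -1.02 each.

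The list of inhibitors and turnover genes and the list of Groucho corepressors held 1 gene each that was 2-fold or more higher. Over all genes past the filter 5.69% were, so neither count sets its list apart. Of 13 genes past the filter in the first list, Mfap2, a microfibril protein of the matrix that binds Notch and Jagged, had 304 without dox and 1591 with dox (5.02-fold higher). Its place in that list does not show that it inhibits Notch in these cells. The Deltex ubiquitin ligase genes Dtx4 and Dtx2 differed by 0.76 and 0.25. Hes and Hey proteins recruit Groucho corepressors to silence genes. That list had 4 genes past the filter, Tle1, Tle3, Tle4 and Sirt1, the last of which is a deacetylase and not a Groucho gene. Of these Tle3 had 1147 and 3043 (2.63-fold higher). Its other probe set past the filter differed by 1.58, and those below it by 0.63 and -0.32. Tle4 went the other way (3106 to 1745, -0.83), and Tle1 differed by 0.11. Of the other Hes and related repressors Bhlhe40, a clock and stress response factor, alone passed the filter, with a difference of 0.33, while Hes2, Hes3, Hes7 and Bhlhe41 did not reach it.

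**Figure D4:**
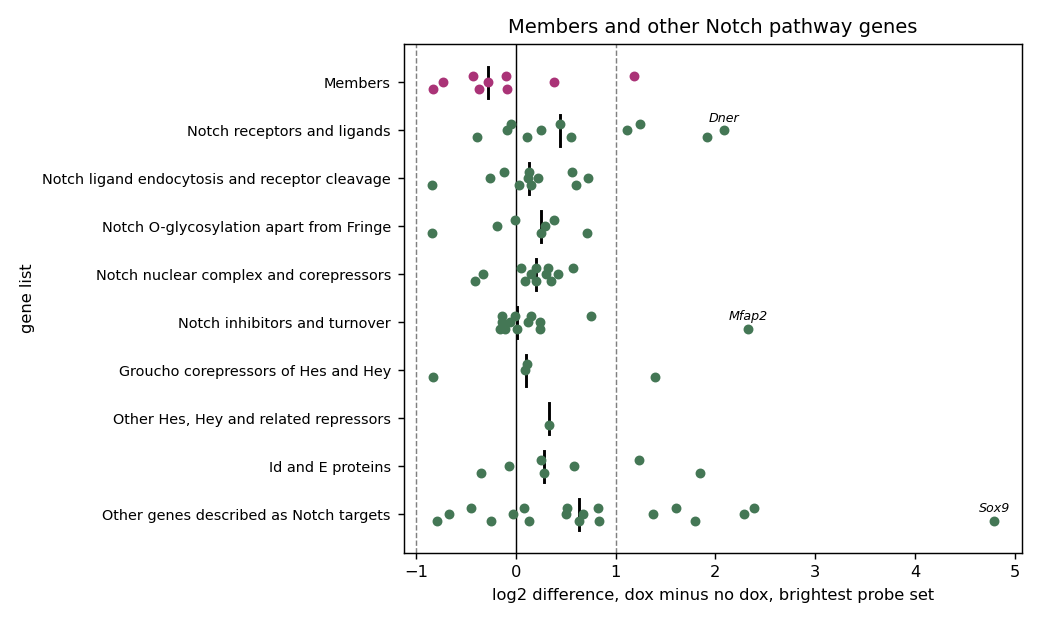
Log2 difference, dox minus no dox, of the 9 members (purple) and of the genes of each pathway list past the signal filter (green), 1 point per gene by its brightest probe set, with the list's median as a black bar and 2-fold as dashed lines. The members' median is -0.28, while that of receptors and ligands is 0.45 and that of other genes described as targets is 0.63.

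Genes that mark other cells also differed between the samples. The smooth muscle and pericyte list had 6 of 7 genes past the filter 2-fold or more higher with dox and 1 lower, and the sum of its signals over 10 measured genes was 6553 without dox and 25380.2 with dox, of which Acta2 gave 2999.5 and 14719. Of the 7 genes, Tagln, Cnn1 and Myocd passed the filter through the dox array alone. Tagln (96.7 to 3960.5) and Myocd (1.94 to 251) had the largest differences, and Cnn1 was at the floor of the table, 1, without dox. Of the cardiomyocyte list 6 of 8 were 2-fold or more higher, led by Myl4 (31.0 to 674) and Tnnt2 (122 to 1469), and its sum went from 2320 to 8057 over 12 genes. Of these 8, 3 passed through the dox array alone, as did 2 of the 9 in the mesenchyme list. In the mesenchyme list 5 of 9 were 2-fold or more higher, led by Lum (26.8 to 1029) and Col3a1 (530 to 10557), with sums of 2815 and 22017. Over all genes past the filter 5.69% were 2-fold or more higher. Genes that pass through the dox array alone lean to the higher side by the filter itself. The sort kept cells positive for both Flk1 and Tie2, a gate not meant to select such cells. Such sums weight each list by its probe sets of highest signal. Hes1 and Heyl, the members higher with dox, are known in such cells as well as in endothelium. Hey1 and Hey2, lower with dox, are known in the heart as well. A bulk sample cannot tell such cells from sorted cells that express these genes themselves. Any part of such cells in the signals of the members was not tested.

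The sorted cells' own markers were largely within 2-fold by their brightest probe sets. Of 10 endothelial markers 8 lay within 2-fold and 2 were lower, Cldn5 (3582 to 1350) and Cd34 (962 to 383), and Erg, at -0.20, had another probe set past the filter at -1.81. The list's sum was 46434 without dox and 42026 with dox. Kdr and Tek, the genes of the sort, are among the 8 within 2-fold, so these 2 are not independent of the gate. They gave 10139.7 and 8799 of the sum without dox, and 10733 and 9277 of the sum with dox. Of 8 blood markers past the filter 3 were 2-fold or more lower, with Myb (809 to 98.6) and Hbb-bh1 (3282 to 535) having the largest differences, and the sum over 9 genes went from 11595 to 6801. Of all genes past the filter 2.06% were 2-fold or more lower. Any part of blood cells in the lower signals of Hey1, Nrarp and Hey2 was not tested. In a sorted bulk sample, fewer cells of a type and less RNA per cell cannot be told apart.

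Markers of somite mesoderm, where Lfng and Heyl are known, and of neural progenitors, where Hes5 and Hes6 are, were mixed. In the presomitic and somite list 8 of 11 genes did not reach the filter, among them Tbx6, Msgn1 and Hes7, Mesp2 was at the floor with dox and Ripply2 without it. Tcf15 was 2.02-fold lower (1085 to 528) and Dll3 differed by 0.12. In the neural list 7 of 11 genes did not reach the filter, and Sox1, by its brightest probe set, and Nkx2-2 were at the floor with dox. The other Sox1 probe set was at the floor without dox and had 31.9 with dox, so no direction is given for Sox1. The neural list's largest differences past the filter were those of Fabp7 (96.9 to 584) and Nes (952 to 478). Fabp7 passed the filter through the dox array alone, and Nes had another probe set past it at -1.62.

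**Figure D5:**
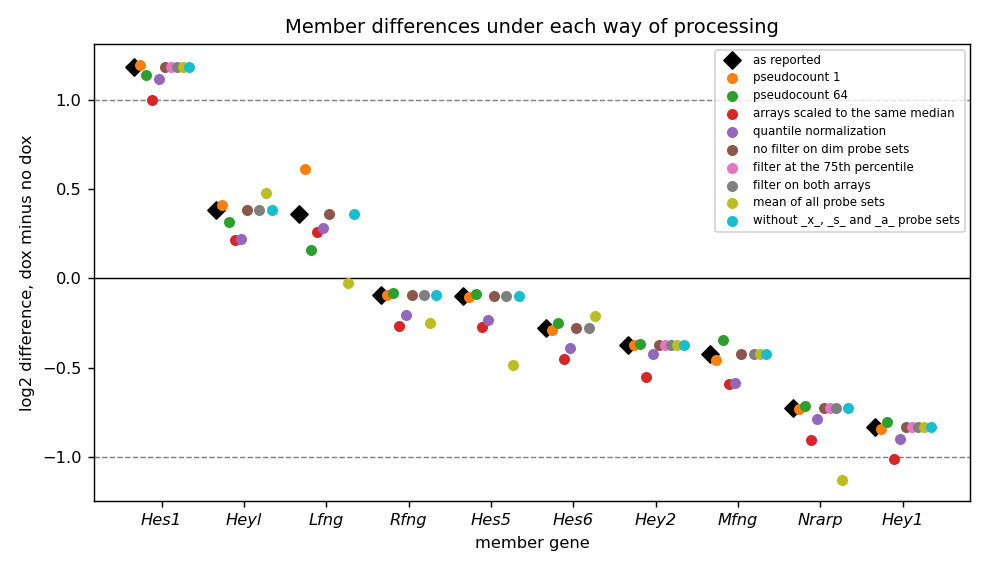
Log2 difference, dox minus no dox (vertical axis), of each member gene as reported (black diamonds) and under each of the 9 alternative ways of processing that gave a value (coloured points), with 2-fold as dashed lines. Hes1 ranges from 1.002 to 1.20, Hey1 from -1.01 to -0.80 and Nrarp from -1.13 to -0.71, and of these 10 genes Lfng alone has values on both sides of 0.

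The directions of 9 of the 10 members were the same under every alternative that gave a value. Hes1 and Heyl were higher with dox throughout, and Hes5, Hes6, Hey1, Hey2, Nrarp, Mfng and Rfng were lower throughout. Most of this agreement is fixed by construction. A change of pseudocount or filter cannot reverse the direction of a probe set. Scaling to the same median lowers every difference, so it cannot reverse a gene that is already lower. All alternatives use the same 2 arrays and say nothing of the spread between cultures. Scaling both arrays to the same median moved the median of all genes by -0.18 log2 units, and of the genes past 2-fold 56.8% were then higher, against 73.4% as deposited. Under that scaling Hey1 was past 2-fold, at -1.01.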

How the data were processed

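RNA of 2 sorted samples (100 ng each) was labelled and hybridised to Affymetrix 3' arrays, per the labels' protocols. The deposited table holds a linear signal intensity for each of 45037 probe sets, with a lowest value of 1, found at 1165 probe sets in the untreated sample and 1102 in the dox sample. For these intensities the summary method and scaling are not given in the sources. Precision is limited by the number of arrays, 1 for each condition, and no detection calls or control probe sets were used here.

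Probe sets were named from the platform annotation: 34945 had 1 symbol, 932 several and 9160 none. Those with several or none were left unnamed. Entrez numbers of 34741 were found in RefSeq (GRCm38.p6), which changed no symbol. Computation used Python 3.11.15, NumPy 2.4.6 and pandas 2.3.3, and the procedure was tested on simulated data. The signal filter, the pseudocount of 16 and the 2-fold threshold were applied as defined above. Named genes were all members, the 3 largest differences of each of 9 pathway lists, the 2 largest of each of 7 marker lists, and Mesp1, Kdr and Tek. Members and lists were chosen with earlier results of these data known. Alternatives changed the pseudocount (1 or 64), scaling, filter and choice of probe set.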

Additional observations from a re-analysis of the deposited data

How the results depend on the processing

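Of 9 alternatives, none changed the count of members 2-fold or more higher with dox (1, Hes1). The count of members 2-fold or more lower was 0 as reported. It was 1 with the arrays scaled to the same median (Hey1) and 1 with the mean of all probe sets (Nrarp, -1.13). The count of other pathway genes 2-fold or more lower was also 0 as reported. It was 3 with the same median (Aph1a, Gmds and Tle4), 1 without a filter (Hes2, dim on both arrays) and 2 with the mean of all probe sets (Ccnd1 and Jag2). With that mean Hes5 moved to -0.49 and Lfng to -0.02. The count of other pathway genes 2-fold or more higher, 14 as reported, ran from 11 to 15. With the mean of all probe sets Jag1, Notch2, Tle3 and Efnb2 were no longer past 2-fold. The filter at the 75th percentile left 4 members, and leaving out probe sets that can match several transcripts removed Hes6. Leaving those out also put Dlk1, Acta2 and Id2 below the filter, while Tcf12 was then past 2-fold higher (1.09). No paired analysis was possible because each condition has 1 array. For the same reason no replicate could be left out.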

Other observations

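Genes described as Notch targets in other settings, outside the Hes, Hey and Nrarp families, lay on the higher side with dox where they passed 2-fold. Of 19 past the filter 6 were at least 2-fold higher and none at least 2-fold lower, with a median log2 difference of 0.63, where 5.69% of all genes were 2-fold or more higher. This list too was chosen with earlier results of these data known, so the contrast is a description. Sox9, a factor of cartilage and heart valves, had signals of 12.3 and 770.3 and passed the filter through the dox array alone, as did Tbx2. Ccnd1, counted within 2-fold at -0.79, had other probe sets past the filter at -1.68 and -1.25, and its mean over probe sets was -1.24. Snai2, a factor that drives cells out of epithelia, had 977 and 5188, and Acta2, the actin of smooth muscle, had 2999.5 and 14719. Acta2 is itself in the smooth muscle marker list, and any part of other cells in these values was not tested.

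Id genes encode helix-loop-helix proteins without a DNA-binding part, which hold E proteins off the DNA. Of 7 Id and E protein genes 2 were 2-fold or more higher with dox, where 5.69% of all genes past the filter were. Id4 had 129 and 507 (3.61-fold), with all 3 of its probe sets higher, and Id2 had 5073 and 11941 (2.35-fold), with another probe set past the filter at 1.73 and a dim one below it at 0.10. The E protein gene Tcf4 differed by 0.58.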
